A study of Mus musculus with 9 samples.

Results

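The genes of the vitamin D receptor, its nuclear partners and the enzymes that make and remove its ligand were examined in mouse bone marrow-derived macrophages (BMDMs). They were found by gene name in the deposited table: Vdr, Rxra, Rxrb, Ncor1, Pdia3, Cyp27a1, Cyp2r1, Cyp27b1 and Cyp24a1, which are 9 of the 28379 genes in that table. BMDMs were grown from marrow of 10-week-old C57BL/6J mice, and every culture received M-CSF at 20 ng/ml, the growth factor that keeps macrophage precursors alive. The PBS group, so named in the labels, received no RANKL and no vitamins. Whether the PBS and RANKL groups received the solvent of the vitamins is not stated in the sample titles or the study's methods. The RANKL group received RANKL at 100 ng/ml, the cytokine that turns these precursors into osteoclasts, and cells of the RANKL + Vit D + K group received the same RANKL with vitamin D (calcitriol, the active hormone) at 1000 nM and vitamin K at 20 µM, the dose in the sample labels, which differs from the one in the study's methods. Cells were treated for 48 hours, and each group had 3 libraries of poly(A) RNA. Both vitamins were given together, so the part of each cannot be told apart, and no group received them without RANKL. The methods speak of pooled RNA, and no source says that the libraries of a group came from separate cultures, so the p-values measure the spread between these libraries, which may be technical.

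Vitamin D acts through the vitamin D receptor, a transcription factor that binds calcitriol, pairs with a retinoid X receptor and sits on DNA at repeated hexamer motifs. The hormone is made by successive hydroxylations of its precursor, by CYP2R1 or CYP27A1 and then by CYP27B1, and is broken down by CYP24A1. Macrophages are a known site of calcitriol production outside the kidney, and Cyp24a1 is the best known target gene of the receptor in many tissues. Without ligand, the receptor can recruit the corepressor NCOR1. PDIA3 is a disulfide isomerase of the endoplasmic reticulum that has also been described as a calcitriol-binding protein at the cell membrane.

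Adding both vitamins to RANKL changed 33.7% of all genes tested, and among the genes examined here it went with lower Vdr, Rxra and Cyp27a1 and with higher Cyp24a1 and Ncor1. Cyp27a1 fell 7.04-fold and Rxra fell 1.67-fold. Vdr was near the limit of counting with the vitamins and at least 3.62-fold higher in RANKL, and its call was lost in 5 of 19 alternative analyses. Cyp24a1 was at a count of 0 in the 3 RANKL libraries and was counted in the 3 RANKL + Vit D + K libraries, at least 6.46-fold higher. Cyp2r1, Rxrb and Pdia3 did not pass the test in that comparison. RANKL alone, against PBS, changed 3.61% of all genes tested and none of the genes examined here at the threshold used, though Rxra passed it once the replicate number was a block. In each case a gene was said to rise or fall where edgeR's quasi-likelihood test, fitted across all genes, gave a Benjamini-Hochberg adjusted p-value under 0.05.

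The total count per library lay between 65915112 and 68229647. All 7 macrophage markers were above 0 in every library, with a summed level of 26283 to 30490 FPKM (read fragments per transcript length and library depth) in PBS, 16600 to 24185 in RANKL and 4484.8 to 11507 in RANKL + Vit D + K. Most of this sum was Lyz2 (26731 FPKM on average in PBS, 19796 in RANKL and 6069.5 with the vitamins). Against RANKL, 5 of the 7 fell with the vitamins, Itgam did not pass the test (log2 fold change -0.33, adjusted p = 0.115 by edgeR), and Cd68 rose, from 552.4 to 717.9 FPKM (0.53, adjusted p = 0.0143). The 10 osteoclast markers summed to 23.6 to 31.8 FPKM in PBS, 489 to 1022 in RANKL and 70.4 to 100.4 in RANKL + Vit D + K, with 7 to 9 of them above 0 in PBS, all 10 in RANKL and 7 to 9 in RANKL + Vit D + K. Against RANKL, 8 of these 10 fell with the vitamins, Itgb3 rose (log2 fold change 2.08, adjusted p = 0.0186 by edgeR), and Atp6v0d2 did not pass the test (-0.23, adjusted p = 0.701). The 8 neutrophil markers summed to 11.1 to 128 FPKM in PBS, 11.3 to 148 in RANKL and 0.551 to 1.72 in RANKL + Vit D + K, where 2 or 3 were above 0. B cell markers (4 of 5 in the table) summed to at most 0.795 FPKM, the 1 T cell marker of 5 that was in the table reached at most 3.76, and the 7 stromal and osteoblast markers summed to at most 1.79. RANKL + Vit D + K replicate 2 stood apart from the other 2 of its group (Pearson r of log2 CPM over genes 0.951 and 0.960, against 0.97496 between those 2), and it had the highest macrophage marker sum of the group. RANKL replicate 2 had the highest osteoclast and the lowest macrophage marker sum of its group. For the 9 genes, results that changed their call without 1 of these libraries are given with and without it. In bulk samples, fewer cells of a type and less RNA per cell cannot be told apart.

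The promoters of the 3 genes that were lower with the vitamins are shown because the hormone's receptor binds DNA directly. The windows run from 250 bases before to 50 bases after the annotated start (RefSeq, build GRCm38.p6). They were available for 8 of the 9 genes, 11 windows in all, and none was found for Cyp24a1. Capitals mark hexamer motifs of the nuclear receptor type, searched on both strands as AGGTCA, as its variant AGTTCA, and with G as the first base as GGGTCA or else as GGTTCA. Each line is the gene's own strand, 5′ to 3′. The Vdr window is chr15:97908247-97908546 on the minus strand, and the Cyp27a1 window is chr1:74713285-74713584 on the plus strand. The Rxra windows are chr2:27676951-27677250 at the upstream start and chr2:27709042-27709341 at the downstream start, both on the plus strand.
Vdr: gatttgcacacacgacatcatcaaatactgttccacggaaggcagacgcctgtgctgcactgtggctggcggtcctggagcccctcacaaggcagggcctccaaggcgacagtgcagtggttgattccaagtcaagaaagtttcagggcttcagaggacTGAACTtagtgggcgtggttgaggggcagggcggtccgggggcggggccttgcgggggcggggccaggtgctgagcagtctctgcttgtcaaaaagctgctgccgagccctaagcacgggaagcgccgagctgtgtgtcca
Cyp27a1: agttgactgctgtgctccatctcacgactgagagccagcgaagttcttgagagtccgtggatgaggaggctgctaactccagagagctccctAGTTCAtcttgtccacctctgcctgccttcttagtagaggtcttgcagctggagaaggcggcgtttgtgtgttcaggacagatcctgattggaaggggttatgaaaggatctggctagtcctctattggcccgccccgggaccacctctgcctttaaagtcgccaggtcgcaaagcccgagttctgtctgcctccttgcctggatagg
Rxra, upstream start: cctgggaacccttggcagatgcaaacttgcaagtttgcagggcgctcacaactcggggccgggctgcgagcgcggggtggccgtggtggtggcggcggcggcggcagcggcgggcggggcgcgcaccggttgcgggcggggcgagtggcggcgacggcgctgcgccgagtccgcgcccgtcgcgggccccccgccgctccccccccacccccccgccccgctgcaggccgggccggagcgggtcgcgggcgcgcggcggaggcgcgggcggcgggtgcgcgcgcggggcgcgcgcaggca
Rxra, downstream start: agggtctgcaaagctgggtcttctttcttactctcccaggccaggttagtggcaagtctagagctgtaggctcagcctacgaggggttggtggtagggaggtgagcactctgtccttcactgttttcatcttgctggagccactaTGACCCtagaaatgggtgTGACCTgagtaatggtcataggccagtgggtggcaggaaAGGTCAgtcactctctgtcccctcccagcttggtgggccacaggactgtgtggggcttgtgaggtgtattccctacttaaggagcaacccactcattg
The Vdr window held 1 hexamer, on the opposite strand, with its first printed base 91 bases before the start. The Cyp27a1 window held 1 on the gene's own strand, 158 bases before the start. The upstream Rxra window held none and was 83.0% G and C, against a median of 52.7% over all windows, while the downstream Rxra window held 3. At least 1 such hexamer was present in 43.7% of the 32851 RefSeq windows searched in the mouse genome. Direct repeats of 2 hexamers with a spacer of 3 bases, the arrangement usually given for the vitamin D receptor, were in 0.0396% of all windows and in 0 of the 11 windows of these genes. A match of letters is a description and not a binding site, and binding was not measured.

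Per length, the 9 genes spanned a wide range of levels. In the PBS group Pdia3 was highest at 109.6 ± 10.7 FPKM (mean ± SD, n = 3 here and below). Rxra followed at 34.97 ± 3.03, Cyp27a1 at 28.3 ± 5.29, Rxrb at 22.9 ± 0.474 and Ncor1 at 21.5 ± 1.25, and the libraries of Rxra and Cyp27a1 overlapped, as did those of Rxrb and Ncor1. Cyp2r1, at 0.398 ± 0.202 FPKM, and Vdr, at 0.206 ± 0.106, overlapped each other and lay far below the other genes. Cyp24a1 and Cyp27b1 were at or near 0. The receptor itself was among the least abundant transcripts of its own pathway in these cultures, and its heterodimer partners were well expressed.

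In the RANKL group Pdia3 stayed first at 148.5 ± 11.0 FPKM. Rxra, Rxrb and Cyp27a1, at 22.1 ± 4.46, 20.7 ± 0.674 and 18.8 ± 6.45, overlapped in that order, and Cyp27a1 overlapped Ncor1, at 17.95 ± 0.765. With the vitamins the order was Pdia3 at 119.8 ± 18.5 FPKM, Ncor1 at 25.5 ± 1.83, Rxrb at 20.96 ± 3.41, Rxra at 12.1 ± 0.835 and Cyp27a1 at 2.45 ± 0.622, and no neighbours among these overlapped. Below them Cyp2r1, at 0.267 ± 0.129, and Cyp24a1, at 0.266 ± 0.134, overlapped, and Vdr was last. The panels of levels by library show the same values.

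**Figure D1:**
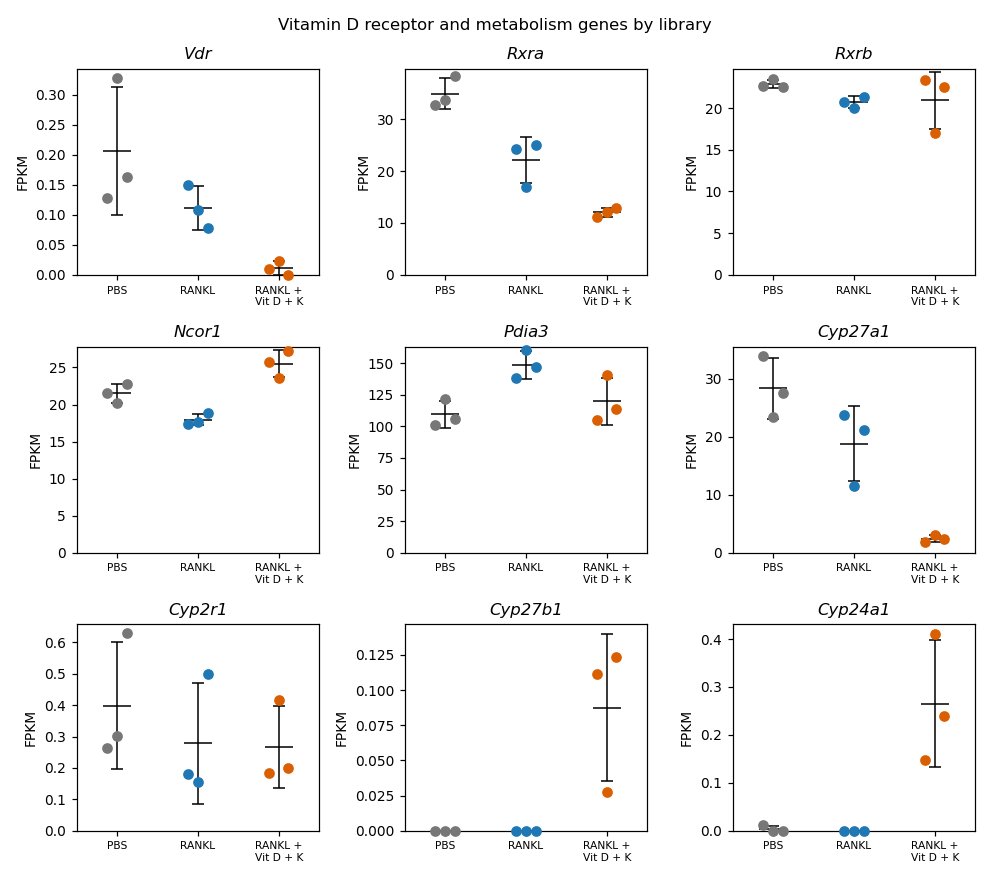
Levels of the 9 genes in FPKM (y axes start at 0 and differ between panels) in the 3 libraries of each group. Points are libraries in replicate order, and the horizontal mark and bar are the mean ± SD. Cyp27a1, Rxra and Vdr step down from PBS to RANKL + Vit D + K, and Cyp24a1 and Cyp27b1 leave 0 only with the vitamins, apart from 1 PBS library with Cyp24a1 at 0.0109.

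Against RANKL, adding both vitamins changed 33.7% of the 17002 genes tested (5725 genes, 2796 higher and 2929 lower, 16.4% and 17.2%), so a call in this comparison was common. Of the 9 genes, 8 passed the filter on low counts and 5 of these 8 changed, 2 higher and 3 lower, with a median log2 fold change of -0.07, beside -0.04 over all genes tested. The libraries of both groups did not overlap for 5 of the 8, beside 46.8% of all genes tested. Cyp24a1 passed the filter only through the RANKL + Vit D + K libraries. Vdr passed it through the PBS and RANKL libraries, where it was high. The place of either gene among the tested genes is therefore not support for its change. RANKL against PBS changed 3.61% of the genes tested (614, with 2.35% higher and 1.26% lower) and 0 of these 8 (1 with the replicate block, Rxra), and the groups did not overlap for 5 of the 8, beside 35.7% of all genes tested. Before adjustment, edgeR's p was under 0.05 there for 4 of the 8 (Cyp27a1, Rxra, Ncor1 and Pdia3). The share of all genes under that cut was not counted, so this is not read as a result about these genes. DESeq2 called 2 of the 8, Rxra and Pdia3, and it also called more of all genes than edgeR did, as the closing section gives. RANKL + Vit D + K against PBS changed 40.8% of the genes tested (6932, with 19.8% higher and 21% lower) and 4 of these 8, Cyp24a1 higher and Vdr, Cyp27a1 and Rxra lower. The groups did not overlap for 4 of the 8, beside 53.1% of all genes tested. The 3 comparisons share libraries in pairs, so they are not independent of each other.

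**Figure D2:**
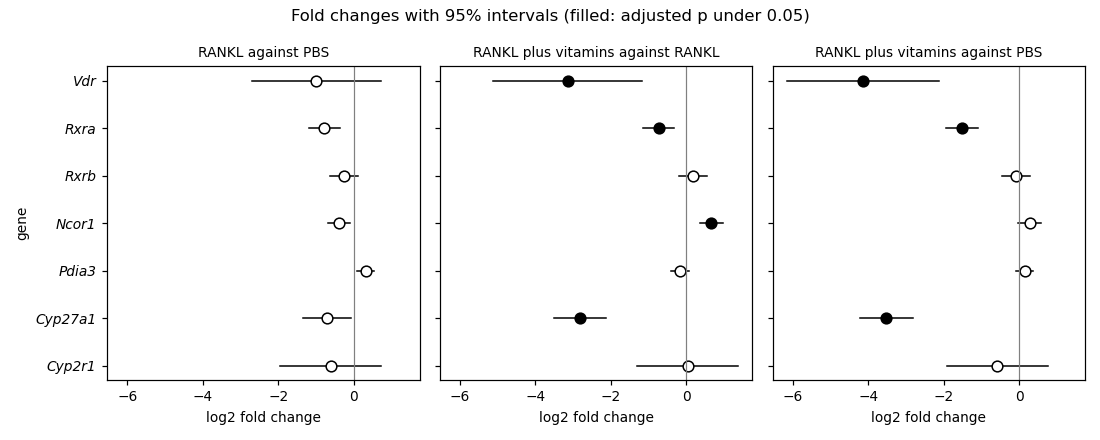
Log2 fold changes (x axis) of 7 of the genes, in 3 panels, 1 for each comparison. Dots are edgeR estimates, lines are 95% intervals, and filled dots have an adjusted p under 0.05. Vdr, Rxra and Cyp27a1 lie left of 0 in all 3 panels, with the place of Vdr in both vitamin panels depending on the fit, since its vitamin-treated libraries were under the floor. Cyp24a1 and Cyp27b1 are left out because their counts were 0 in whole groups.

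Vdr (chr15:97854425-97910630, minus strand) encodes the receptor. Its counts were 54, 140 and 69 in PBS replicates 1 to 3, 64, 46 and 35 in RANKL, and 4, 11 and 0 in RANKL + Vit D + K. PBS and RANKL overlapped, while every vitamin-treated library lay below every other library. Against RANKL the log2 fold change was -3.15 (SE 0.873, 95% interval -5.12 to -1.18, adjusted p = 0.0227 by edgeR), and against PBS it was -4.14 (SE 0.896, adjusted p = 0.00646). Since Vdr passed the filter through the groups where it was high, the edgeR test without a filter is given too. Its adjusted p was 0.0382 against RANKL and 0.0116 against PBS. RANKL against PBS gave -0.99 (SE 0.762, interval -2.70 to 0.73, adjusted p = 0.55), which leaves a fall as well as a rise within its interval.

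Counts in this table piled up at 4 (2.22 times as often as counts of 3 and 5 on average) and less at 8 (1.37 times as often as 7 and 9), while 12 was about as frequent as 11, so at low counts 1 read pair may stand for several counts, and a floor of 3 read pairs or 12 counts per library was used for genes near 0. All 3 vitamin-treated libraries were under that floor for Vdr. With them set at the floor, Vdr was at least 3.62-fold higher in RANKL and at least 7.19-fold higher in PBS. The call against RANKL was lost without RANKL replicate 1 (adjusted p = 0.0738) and without RANKL + Vit D + K replicate 1 (adjusted p = 0.0663), and in a fit of the 2 groups alone (adjusted p = 0.0628). Without RANKL + Vit D + K replicate 2, the log2 fold change was -4.28 (adjusted p = 0.0065). The Vdr row of the table lists 2 of the 6 transcripts in the GENCODE M21 annotation, 1 of them coding, where the annotation has 5 coding ones. Neutrophil markers were near 0 with the vitamins as well. Their sum was highest in replicate 2 of PBS, the library with the most Vdr, and in replicate 2 of RANKL, where replicate 1 had more Vdr. Their part in the Vdr result was not tested.

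Rxra (chr2:27676440-27762957, plus strand) and Rxrb (chr17:34031812-34038397, plus strand) encode retinoid X receptors alpha and beta, the obligate partners of the vitamin D receptor and of many other nuclear receptors. Rxra was at 32.7, 33.8 and 38.4 FPKM in PBS, 24.3, 17.0 and 25.1 in RANKL, and 11.2, 12.03 and 12.9 in RANKL + Vit D + K. None of the 3 groups overlapped, and the lowest RANKL library was replicate 2. Rxra fell by 0.74 on the log2 scale with the vitamins against RANKL (SE 0.181, adjusted p = 0.0142 by edgeR) and by 1.51 against PBS (SE 0.184, adjusted p = 0.000542). Against PBS, RANKL alone gave a log2 fold change of -0.78 (SE 0.181, adjusted p = 0.0508), just past the threshold.

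Same-numbered PBS and RANKL libraries deviated together, and with the replicate number as a block Rxra passed the test in that comparison (log2 fold change -0.80, adjusted p = 0.0227). It also passed without RANKL + Vit D + K replicate 2, which enters the shared estimate of spread (-0.78, adjusted p = 0.0259). In all, Rxra passed in that comparison in 8 of 20 alternative analyses. The vitamin call on Rxra was lost without RANKL replicate 1 (adjusted p = 0.0589) or RANKL replicate 3 (adjusted p = 0.0576), and without RANKL replicate 2 it was -0.92 (adjusted p = 0.00224). The macrophage marker sum, most of it Lyz2, was also lowest in the vitamin group and, within RANKL, lowest in replicate 2, while Cd68 of the same list rose with the vitamins. The part of these cells in the Rxra result was not tested.

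Rxrb was steadier, with 22.7, 23.4 and 22.6 FPKM in PBS, 20.7, 20.0 and 21.4 in RANKL, and 23.4, 17.1 and 22.5 in RANKL + Vit D + K. The vitamin-treated libraries straddled those of RANKL, with replicate 2 below all other libraries. The log2 fold change against RANKL was 0.18 (95% interval -0.20 to 0.55, adjusted p = 0.44 by edgeR), and the interval leaves room for a small fall or a rise. Without RANKL + Vit D + K replicate 2, it was 0.36 and passed the test (adjusted p = 0.00839), so this result rests on 1 library. RANKL against PBS gave -0.27 (adjusted p = 0.448).

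The balance of both RXR rows differed between the groups. The Rxra row lists 5 transcripts, 2 of them coding and 2 not in GENCODE M21, and lacks 3 of the 5 coding transcripts of that annotation, while the Rxrb row lacks none, so the share is that of the rows as counted. Rxra was 59.1%, 59.0% and 63.0% of the summed Rxra and Rxrb FPKM in PBS, 53.9%, 45.9% and 54.0% in RANKL, and 32.5%, 41.4% and 36.5% in RANKL + Vit D + K. The group means were 60.4 ± 2.28%, 51.3 ± 4.65% and 36.8 ± 4.45%, and the groups did not overlap. An exact two-sided permutation test of 3 against 3 libraries gave p = 0.1 for each pair of groups, the smallest p this design allows. Rxra was thus the more abundant RXR gene in every PBS library and the less abundant in every vitamin-treated library. Leaving out any 1 library, the difference between RANKL + Vit D + K and RANKL ran from -17.2 to -12.4 percentage points.

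**Figure D3:**
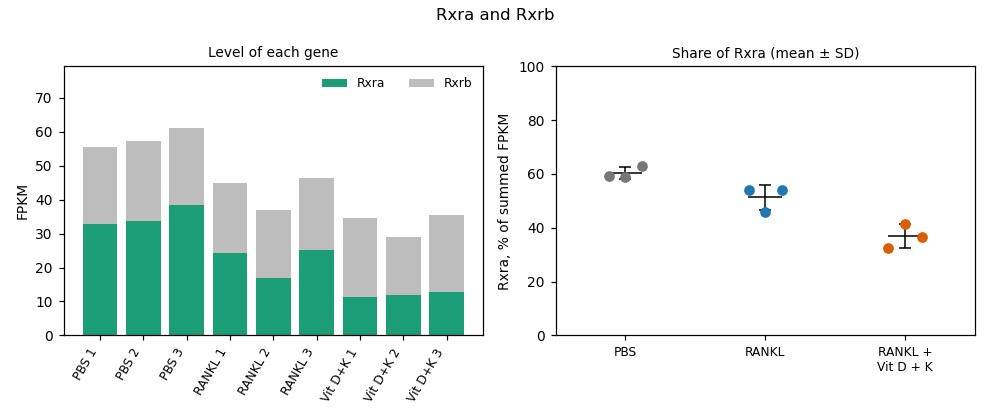
Left, FPKM of Rxra and Rxrb stacked for each of the 9 libraries. Right, Rxra as a percentage of their sum, with 1 point per library and the mean ± SD per group, from 60.4% in PBS to 36.8% in RANKL + Vit D + K.

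Ncor1 (chr11:62316426-62457332, minus strand) encodes a corepressor that unliganded nuclear receptors recruit together with histone deacetylases. It was at 21.5, 20.3 and 22.8 FPKM in PBS, 17.4, 17.6 and 18.8 in RANKL, and 25.7, 23.6 and 27.2 in RANKL + Vit D + K. Every RANKL library was below every PBS library, and every vitamin-treated library was above both groups in FPKM, though in TMM-normalised counts RANKL + Vit D + K replicate 2 lay within the PBS range. RANKL against PBS gave a log2 fold change of -0.39 (adjusted p = 0.151 by edgeR), which did not pass the test, and the same -0.39 without RANKL + Vit D + K replicate 2, which did (adjusted p = 0.0291). Ncor1 rose with the vitamins against RANKL (log2 fold change 0.66, SE 0.132, adjusted p = 0.0062 by edgeR), a 1.58-fold difference. Against PBS the vitamin group differed by 0.27 (interval -0.02 to 0.57, adjusted p = 0.124), and without RANKL + Vit D + K replicate 2 by 0.39, which passed the test (adjusted p = 0.00969). In GENCODE M21 the Ncor1 gene shares 82 exonic bases with Pigl and 1 with Ttc19 on the other strand, and whether the counting used strand is not given in the sources used here. Their counts were 382 to 1055 for Pigl and 718 to 973 for Ttc19 over all libraries, and their part in the Ncor1 result was not tested.

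Pdia3 (chr2:121413775-121438687, plus strand) was at 101.1, 121.6 and 106.1 FPKM in PBS, 138.2, 160.0 and 147.2 in RANKL, and 105.2, 140.7 and 113.5 in RANKL + Vit D + K. The RANKL libraries were above all PBS libraries, and the vitamin-treated libraries overlapped both groups, with replicate 2 the highest. RANKL differed from PBS by 0.31 on the log2 scale (interval 0.08 to 0.55, adjusted p = 0.142 by edgeR), and the vitamins gave -0.17 against RANKL (interval -0.40 to 0.06, adjusted p = 0.236). Neither passed the test. DESeq2 (0.33, adjusted p = 0.0336) and a fit of the 2 groups alone (0.37, adjusted p = 0.0408) called the first, as did the fit without RANKL + Vit D + K replicate 2 (0.31, adjusted p = 0.0449).

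Cyp27a1 (chr1:74713574-74737892, plus strand) encodes a mitochondrial hydroxylase that acts on cholesterol side chains as well as on vitamin D. It was at 34.0, 23.5 and 27.6 FPKM in PBS, 23.8, 11.5 and 21.1 in RANKL, and 1.87, 3.11 and 2.38 in RANKL + Vit D + K. Every vitamin-treated library was below every other library, and RANKL replicate 2 was the lowest library without vitamins. Cyp27a1 fell by 2.82 on the log2 scale against RANKL (SE 0.305, interval -3.50 to -2.13, adjusted p = 0.000655 by edgeR) and by 3.52 against PBS (SE 0.314, adjusted p = 0.000211).

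This change rested on 305 to 522 counts in the vitamin-treated libraries and 1871 to 5434 in the others. It passed the test against RANKL in all 20 alternative analyses. Without RANKL replicate 2 the log2 fold change against RANKL was -3.09, and without RANKL + Vit D + K replicate 2 it was -2.94. RANKL alone gave -0.70 against PBS (interval -1.34 to -0.06, adjusted p = 0.225), which did not pass the test. Cyp27a1 was lowest in RANKL + Vit D + K replicate 1, where the macrophage marker sum, most of it Lyz2, was lowest too, while Cd68 rose with the vitamins. The part of these cells in the result was not tested.

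Cyp2r1 (chr7:114549682-114562972, minus strand) encodes the main microsomal enzyme for the first hydroxylation. Its counts were 42, 49 and 100 in PBS, 29, 26 and 83 in RANKL, and 30, 69 and 32 in RANKL + Vit D + K. All 3 groups overlapped, and in each 1 library stood well above the other 2. The log2 fold change of the vitamins against RANKL was 0.03 (interval -1.31 to 1.37, adjusted p = 0.973 by edgeR), and at these counts a 2-fold change in either direction lies within the interval.

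Cyp27b1 (chr10:127048250-127053006, plus strand) encodes the enzyme of the last activating step. Its counts were 0 in all 6 PBS and RANKL libraries and 23, 6 and 24 in RANKL + Vit D + K, and replicate 2 was again the library that differed from its group. It failed the filter on low counts. Without the filter, its adjusted p was 0.0411 against RANKL and 0.035 against PBS (edgeR), and against the floor of 12 counts per library its mean was at least 1.70-fold and 1.54-fold higher, although replicate 2 of the vitamin group was itself under that floor. The row lists 2 transcripts of the gene, and neither is coding in GENCODE M21. The 1 coding transcript of the annotation is not in the row, so these counts do not measure the coding mRNA as annotated.

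Cyp24a1 (chr2:170482708-170497145, minus strand) encodes the enzyme that inactivates calcitriol. Its counts were 3, 0 and 0 in PBS, 0, 0 and 0 in RANKL, and 39, 113 and 64 in RANKL + Vit D + K, where its level was 0.147, 0.410 and 0.240 FPKM. All vitamin-treated libraries were above the floor of 12 counts and all others were below it. It was at least 6.46-fold higher than in RANKL and at least 5.83-fold higher than in PBS, both bounds set by the floor. Since it entered the filtered test only through the group where it was high, the test without a filter is given too (adjusted p = 0.0084 against RANKL and 0.0118 against PBS by edgeR, beside 0.0051 and 0.00721 with the filter). Among the vitamin-treated libraries, replicate 2 was highest for Cyp24a1 and lowest for Cyp27b1.

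The Cyp24a1 gene overlaps Pfdn4 on the other strand, with 83 exonic bases in common. Pfdn4 had 370 to 470 counts in PBS, 539 to 767 in RANKL and 686 to 830 with the vitamins. Whether reads of Pfdn4 entered the Cyp24a1 counts was not tested. In FPKM, Cyp24a1 of the vitamin-treated libraries overlapped Cyp2r1 and stayed far below the RXR genes.

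Beyond the 9 genes, 6 lists of related genes were examined in the vitamin comparison. Of the electron donors of these enzymes, 5 genes were in the table and tested, with 2 higher, 0 lower and a median log2 fold change of 0.19. Over all genes tested 33.7% changed (16.4% higher and 17.2% lower), with a median of -0.04. Por, the reductase that feeds microsomal enzymes such as CYP2R1, was at 31.2, 28.8 and 27.9 FPKM in RANKL and 93.0, 44.5 and 75.0 with the vitamins. It rose by 1.45 on the log2 scale (SE 0.271, adjusted p = 0.00486 by edgeR). Fdx2, a mitochondrial ferredoxin known mainly for iron-sulfur cluster assembly, rose by 1.16 (adjusted p = 0.0139), and its call was lost without RANKL + Vit D + K replicate 1 (adjusted p = 0.0512). Fdx1, the ferredoxin that serves the mitochondrial hydroxylases, did not pass the test (0.19, adjusted p = 0.447). In all vitamin-treated libraries Por was above every RANKL library, and it was lowest in replicate 2.

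Of 7 genes of vitamin D transport and side pathways, 4 were in the table and 2 were tested. Dhcr7, which turns the vitamin D precursor into cholesterol, was at 2.27, 3.54 and 2.55 FPKM in RANKL and 0.503, 1.47 and 0.828 with the vitamins. It fell by 1.46 on the log2 scale (SE 0.314, adjusted p = 0.00842 by edgeR), and the groups did not overlap. Cubn, part of an uptake receptor, had a log2 fold change of -2.44 and did not pass (adjusted p = 0.101).

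All 16 coactivators and corepressors of the receptor were tested, 6 were higher and 1 was lower, with a median log2 fold change of 0.23, beside 33.7% of all genes tested that changed (16.4% higher and 17.2% lower). Crebbp, a histone acetyltransferase, rose by 1.04 (adjusted p = 0.0233 by edgeR) and Ncoa6 by 0.80 (adjusted p = 0.00614). Gps2, a subunit of the NCOR1 complex, rose by 0.62 (adjusted p = 0.0273), and Med1, the Mediator subunit that contacts liganded nuclear receptors, by 0.53 (adjusted p = 0.00787). Crebbp was at 4.23, 3.996 and 4.64 FPKM in RANKL and at 9.69, 4.61 and 9.15 with the vitamins, so replicate 2 lay within the range of the RANKL libraries. The list gave 4 calls without PBS replicate 3 or RANKL replicate 2, 2 without RANKL replicate 1, RANKL replicate 3 or RANKL + Vit D + K replicate 1 or 3, and 11 without RANKL + Vit D + K replicate 2. Calls over all genes tested moved too, from 5725 to between 3199 and 8259 with 1 library left out. Among the named genes, Crebbp and Gps2 each lost their call in 7 of 20 alternative analyses.

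Other nuclear receptors that pair with RXR moved in both directions: of 16, 13 were in the table and 11 were tested, with 2 higher, 4 lower and a median log2 fold change of -1.15, beside 33.7% of all genes tested that changed (16.4% higher and 17.2% lower). Ppard and Pparg, fatty acid-sensing receptors, each rose by 2.13 (adjusted p = 0.00637 and 0.00336 by edgeR). Pparg was at 3.71, 3.00 and 3.00 FPKM in RANKL and 16.4, 6.42 and 14.5 with the vitamins, and Ppard at 3.25, 2.33 and 3.28 and then 16.2, 4.71 and 13.2. For both genes all vitamin-treated libraries were above the RANKL libraries, and replicate 2 was nearest to them. Rarg, a retinoic acid receptor, fell by 1.48 (adjusted p = 0.0027), and Nr1h3, the oxysterol receptor LXR alpha, fell by 1.26 (adjusted p = 0.00376). Rara and Thra fell as well, by 1.17 and 1.15. Nr1h3 was also the gene of this list that RANKL changed against PBS (log2 fold change 1.27, adjusted p = 0.0186), at 3.03, 3.22 and 3.19 FPKM in PBS and 7.71, 9.68 and 7.61 in RANKL. That call was lost without any 1 of PBS replicates 1, 2 and 3 or RANKL replicates 1 and 2 (adjusted p up to 0.0916).

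Of 27 genes known from other systems to respond to calcitriol, 21 were in the table and 15 were tested, with 5 higher, 7 lower and a median log2 fold change of -0.61, beside 33.7% of all genes tested that changed (16.4% higher and 17.2% lower). The list was not sorted by direction, species or cell type of those responses. A change here is therefore not read as a known calcitriol response of these cells. Spp1, which encodes osteopontin, was at 163.3, 281.2 and 167.3 FPKM in RANKL and 912.5, 944.9 and 899.3 with the vitamins, and rose by 2.33 (SE 0.506, adjusted p = 0.00862 by edgeR). Txnip, the thioredoxin-interacting protein, was at 126.2, 117.8 and 112.0 FPKM in RANKL and 2.88, 14.6 and 4.74 with the vitamins, and fell by 3.92 (SE 0.476, adjusted p = 0.000937). Both genes separated the groups without overlap. Nod2, a sensor of bacterial cell wall, fell by 2.20 (adjusted p = 0.00361). Camp, the antimicrobial peptide cathelicidin, was at 177, 243 and 44 counts in RANKL and 0 in the 3 vitamin-treated libraries, at least 11.5-fold lower (adjusted p = 0.012). Camp is also made by neutrophil precursors and is itself in the list of neutrophil markers above, so their sum includes it. Those markers were near 0 in the same libraries, and the part of neutrophil precursors in this result was not tested. The list gave 6 calls without RANKL replicate 1 and 7 without RANKL replicate 3 or RANKL + Vit D + K replicate 1. Over all genes tested, 5725 calls became 3199 to 8259 with 1 library left out, the lowest without RANKL replicate 1.

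In RANKL against PBS, where 3.61% of all genes tested changed, 1 of the 15 changed, Hbegf, an EGF-family ligand, which was at 0 counts in PBS and 77, 26 and 11 in RANKL (adjusted p = 0.0288 by edgeR), the last of these under the floor of 12 counts, so no fold is given. Its call was lost in 11 of 19 alternative analyses, among them those without any 1 of PBS replicates 1 to 3, RANKL replicates 1 and 2, or RANKL + Vit D + K replicate 3 (adjusted p up to 0.0921). With the replicate number as a block 3 of the 15 changed, since Irf8 (log2 fold change -0.98, adjusted p = 0.0131) and Cebpb (-0.76, adjusted p = 0.0425), both myeloid transcription factors, were added. Without RANKL + Vit D + K replicate 2 there were 6, and without replicate 1 of that group 2, and the calls over all genes moved as well, from 614 to 825 with the block, and to 1903 and 703 without these libraries.

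Of 8 other protein disulfide isomerases, relatives of Pdia3, 7 were tested, with 4 higher, 0 lower and a median log2 fold change of 0.50 against RANKL, beside 33.7% of all genes tested that changed (16.4% higher and 17.2% lower). Pdia5 rose by 1.21 (adjusted p = 0.0412 by edgeR), Pdia4 by 0.50 (adjusted p = 0.00838), Erp44 by 0.50 (adjusted p = 0.0276) and Pdia6 by 0.50 (adjusted p = 0.0146). Pdia3 itself had a log2 fold change of -0.17 in the same comparison and did not pass the test, and the difference between Pdia3 and its relatives was not tested. The Pdia5 call was lost in 11 of 20 alternative analyses, the Erp44 call in 6 and the Pdia6 call in 2. The list gave 2 calls without RANKL replicate 2, RANKL replicate 3 or RANKL + Vit D + K replicate 1, and 1 without RANKL replicate 1 or RANKL + Vit D + K replicate 3. The calls over all genes tested, 5725, also moved with 1 library left out, to between 3199 (without RANKL replicate 1) and 8259.

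**Figure D4:**
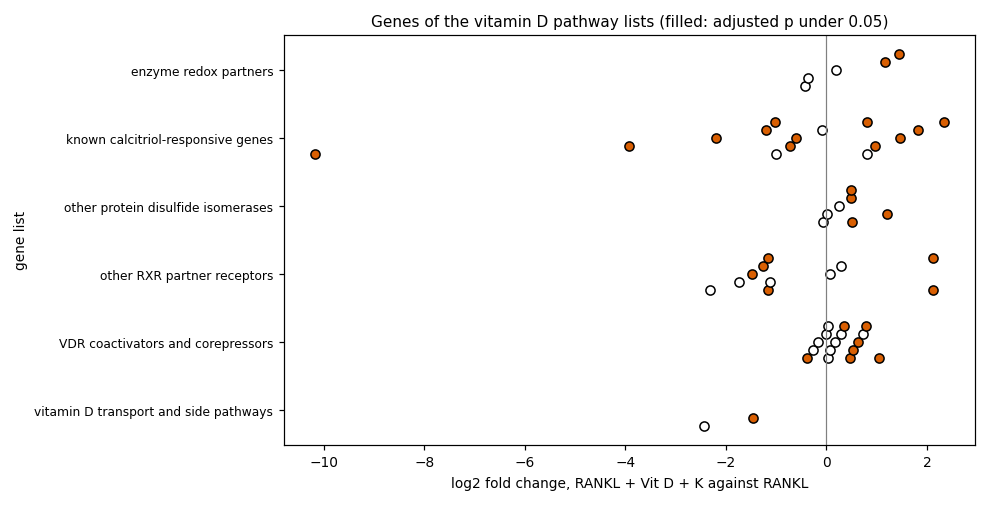
Log2 fold changes (x axis) of RANKL + Vit D + K against RANKL for each tested gene of the 6 lists (rows). Filled points have an adjusted p under 0.05, the vertical spread within a row only separates points, and the point near -10 is Camp, whose vitamin-treated libraries were at 0 so that its position depends on the fit. Calls of the disulfide isomerases lie to the right of 0, while those of the calcitriol-responsive genes and RXR partners lie on both sides.

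The genes most like each changed member were taken by Pearson r of log2 CPM (counts scaled to library size) over the 9 libraries, which fall into 3 groups and share their treatment, so high values are common. Genes with names of Gm and digits or ending in Rik were left out of the ranking. For Cyp27a1 the most alike were Marcks (r = 0.9978), Gprc5c (0.9972) and Cmklr1 (0.9961), and for Rxra they were Rgs10 (0.9954), Ypel3 (0.9944) and Apoe (0.9921). For Ncor1 they were Man2c1 (0.9938), Alcam (0.9892) and Rnf128 (0.9878). The low-count genes gave lower values, with Cdan1 (0.9824), Rbfaos (0.9816) and Ctla2a (0.9793) for Vdr and Ssr1 (0.985), Tmem114 (0.9822) and Slc39a14 (0.982) for Cyp24a1.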

How the data were processed

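RNA sequencing was analysed from 9 libraries of mouse BMDMs, 3 per group, assigned by their sample labels. The authors deposited 1 table with counts per gene, which were not normalized, and FPKM values, which the authors scaled to gene length and library size. The submitters' processing notes name cutadapt 1.9, HISAT2 2.0.4, StringTie 1.3.4d and edgeR, and a human build, but the deposited mouse gene IDs were found in GENCODE M21 on GRCm38 for 28294 of 28379 genes (99.7%), and 24678 (87.0%) had the same position, so positions are given on GRCm38. The table's annotation columns were otherwise not used.

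Counts were tested with edgeR 4.0.16 in R 4.3.3 (filterByExpr with a minimum count of 10, TMM, quasi-likelihood test, all 9 libraries fitted together, Benjamini-Hochberg adjustment over the 17002 genes tested, threshold 0.05). The SE was the log2 fold change divided by the square root of F. Intervals are 95% and cover the spread between libraries. Floors cover counting error only, since reads carried no molecular identifiers. DESeq2 1.42.0, limma 3.58.1 on log2(FPKM + 0.1), + 1 or + 0.01, other normalization and filters, a fit of 2 groups, a replicate block, counts divided by 4 and leaving out each library were the alternatives. The scripts were tested on simulated data.

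The genes and lists were chosen with earlier results of these data known. All 9 genes are named, with up to 4 changed genes of each list by size of change and the 3 most alike genes; Fdx1, Cubn, Rara, Thra, Hbegf, Irf8 and Cebpb were named after their values were seen. The result of 1 listed gene is counted but not reported here. As a check of pairing, deviations of same-numbered libraries from their group means correlated at 0.122, 0.219 and 0.155 between PBS and RANKL, where the numbers were taken to pair libraries, on the evidence of the data alone. Between RANKL + Vit D + K and RANKL they correlated at 0.00625, 0.0428 and 0.107.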

Additional observations from a re-analysis of the deposited data

How the results depend on the processing

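RANKL against PBS depended most on the settings: 614 genes were called, but 1689 by DESeq2, 1736 in a fit of the 2 groups, and between 126 (without PBS replicate 3) and 1903 (without RANKL + Vit D + K replicate 2) with 1 library left out. Of the 9 genes, 0 were called there, but 2 by DESeq2, 2 in a fit of the 2 groups, 1 each under the stricter filter, limma with log2(FPKM + 0.1) or log2(FPKM + 1), counts divided by 4 and the replicate block, and 0 to 3 with 1 library left out. The vitamins against RANKL gave 5725 genes and 3199 to 8259 with 1 library left out (3199 without RANKL replicate 1). Of the 9 genes, 5 were called, 3 to 7 with 1 library left out, and 3 under the stricter filter, which needs 100 counts in 3 libraries and removes Vdr and Cyp24a1. The vitamins against PBS gave 6932 genes (4766 to 8868), with 4 of the 9 called (4 to 6), and 2 under the stricter filter. Directions reversed for results that did not pass the test: Cyp2r1 with the vitamins against RANKL was -0.007388 under limma with log2(FPKM + 1), and -0.1991, -0.2643 and -0.3347 without RANKL replicate 1, RANKL replicate 2 and RANKL + Vit D + K replicate 2 (the highest with 1 library left out was 0.7786). Rxrb against PBS was 0.09555 without RANKL + Vit D + K replicate 2, and Cyp24a1 in RANKL against PBS was 0 without PBS replicate 1, which held its only counts there (-3.733 to 0 with 1 library left out). Elsewhere the cause was not tested. Vdr against RANKL was -0.92 (adjusted p = 0.0539) under limma with log2(FPKM + 0.1) and -0.14 (adjusted p = 0.177) with + 1. With limma 36.0% of the calls in that comparison were higher (35.5% with + 0.01 and 37.5% with + 1), against 48.8% by edgeR, and the median log2 fold change was -0.17. Cyp27a1 and Ncor1 passed the test with the vitamins against RANKL in all 20 alternatives. With the replicate block the genes called were 825, 5873 and 7041 in the 3 comparisons. For the vitamin libraries, same-numbered deviations correlated at 0.00625 to 0.107 with RANKL and at -0.0216 to 0.0237 with PBS. Whether the numbers pair them with the others is therefore unclear. The block left 5 and 4 of the 9 genes called in the vitamin comparisons, and 4 coactivators and corepressors in place of 7. Depth limits Vdr, Cyp2r1, Cyp24a1 and Cyp27b1, none of which exceeded 140 counts in any library.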
